A study of Mus musculus with 19 samples.

Results

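Neuronal nitric oxide synthase (Nos1), its adaptor Nos1ap, the soluble guanylyl cyclase subunits Gucy1a3 and Gucy1b3 and the cGMP-dependent protein kinases Prkg1 and Prkg2 were followed in cultured mouse hippocampal neurons. These are 6 genes of 19197 genes with a kept probe. All probes that carry these names on the array were taken, which gave 16 probes of 41174 gene probes. Of these, 12 had a neuron signal well above background on at least 4 arrays and were kept, among 28638 kept probes in all. Nos1 had 1 kept probe of 2, Nos1ap 1 of 1, Gucy1a3 3 of 4, Gucy1b3 3 of 3, Prkg1 2 of 4 and Prkg2 2 of 2. The members were selected on the log2 difference of Nos1 between AP5 and vehicle on these same arrays, and the other 5 genes were added as its partners. The difference between AP5 and vehicle is therefore given for every member as a description, with no p-value.

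Dissociated hippocampal neurons, 21 days in vitro, were exposed for 6 h to 100 µM AP5 (n = 5 arrays), 100 nM NVP-AAM077 (NVP below, n = 4), 1 µM of a compound titled Ro25 (n = 5) or vehicle (n = 5). AP5 blocks NMDA receptors by competing with glutamate, as does NVP-AAM077, which prefers receptors with the GluN2A subunit to some degree. What the Ro25 compound is was taken no further than its title, because the code number in the treatment labels is not that of the familiar GluN2B blocker of the same series. Doses were not matched between compounds. Every array carried neuron RNA in red (Cy5) and the same universal mouse reference RNA in green (Cy3), and the values below are log2 ratios of red over green unless another scale is named. The labels give no strain and do not state whether the replicates of a group were separate cultures, so a p-value here sets a difference against array-to-array spread that may be technical.

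Nitric oxide is made from arginine by nitric oxide synthases. In neurons Nos1 is held at the synapse by the scaffold protein PSD-95, beside NMDA receptors, and calcium entering through these receptors switches the enzyme on. Nitric oxide then binds the haem of soluble guanylyl cyclase, a dimer of an alpha and a beta subunit, and the cGMP that the cyclase makes activates the kinases encoded by Prkg1 and Prkg2. In the hippocampus Nos1 is best known from a class of GABAergic interneurons and is also present in pyramidal cells.

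The arrays had a median red signal of 136 to 178 and a median green signal of 88.7 to 107, and their number limits the precision. All 12 neuron markers, among them Rbfox3 and Syt1, were kept, and so were all 17 astrocyte markers. Of 17 GABAergic interneuron markers 16 were kept (not Dlx6), of 13 microglia markers 11 (not Itgam and P2ry12), of 13 oligodendrocyte lineage markers 13, and of 11 endothelial and mural markers 9 (not Pecam1 and Cdh5). AP5 5, NVP 4, Ro25 3 and vehicle 3 stood apart, with a mean log2 ratio over the astrocyte markers of 2.75 to 2.93, against 3.59 to 4.25 on the other arrays. Slides were tied to treatment. AP5 1 to 4 lay on slide 1, AP5 5 with NVP 1 and 3 on slide 2, NVP 2 and 4 with Ro25 1 and 4 on slide 3, Ro25 2, 3 and 5 with vehicle 2 on slide 4, and the other vehicle arrays on slide 5. No slide held both AP5 and vehicle.

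Windows of 300 bases around annotated start sites are shown for Nos1, the member whose level differed most, and for Gucy1b1, the current symbol of Gucy1b3, because these were the only windows of the members that held the core of the cAMP response element. This element is bound by CREB, a transcription factor that is phosphorylated after calcium entry. The sequences are RefSeq's, in the GRCm38.p6 build, from 250 bases before to 50 bases after the start, and capitals mark the core on the reverse strand. The Nos1 window lies at chr5:117866589-117866888 on the plus strand and the Gucy1b1 window at chr3:82074662-82074961 on the minus strand.
Nos1: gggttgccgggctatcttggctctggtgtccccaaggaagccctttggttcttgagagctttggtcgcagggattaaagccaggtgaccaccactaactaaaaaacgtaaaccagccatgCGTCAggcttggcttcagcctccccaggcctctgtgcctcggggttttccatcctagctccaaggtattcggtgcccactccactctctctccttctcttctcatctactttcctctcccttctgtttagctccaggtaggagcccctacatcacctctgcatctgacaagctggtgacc
Gucy1b1: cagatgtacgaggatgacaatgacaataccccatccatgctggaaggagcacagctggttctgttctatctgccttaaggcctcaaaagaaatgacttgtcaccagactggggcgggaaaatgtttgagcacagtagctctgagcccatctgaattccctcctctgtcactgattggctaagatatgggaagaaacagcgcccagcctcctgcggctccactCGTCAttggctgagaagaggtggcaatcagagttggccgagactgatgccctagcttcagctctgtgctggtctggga
In all 8 windows of 5 members were searched on both strands for the full element TGACGTCA, its core TGACG (which the full element contains) and the AP-1 motif TGANTCA. The AP-1 motif begins with TGA and ends with TCA, as the full element does, and differs from it in the middle. No window held the full element, which 1.79% of 32841 promoter windows held. The core stood at position -130 in Nos1 and at position -28 in Gucy1b1, counted from the start, and 20.8% of all windows held it. The AP-1 motif was found in 1 of the windows, a Nos1ap window at chr1:170557061-170557360, and in 7.81% of all windows. A match is a description of letters and not of binding.

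Nos1 was higher in AP5 than in the other groups, by 0.95 to 1.10 on the log2 scale. The brighter of its probes (Nos1 probe 1, chr5:118219774-118219833, plus strand, mm8 per the file headers) gave log2 ratios of 1.43, 0.99, 1.09, 1.21 and 1.35 on the AP5 arrays. The NVP arrays gave 0.06, 0.34, 0.14 and 0.41, and the Ro25 arrays gave 0.25, 0.39, 0.50, 0.05 and 0.13. The vehicle arrays gave -0.08, 0.28, 0.16, -0.04 and 0.28. Every AP5 array lay above every array of the other groups, while the ranges of NVP, Ro25 and vehicle overlapped.

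**Figure D1:**
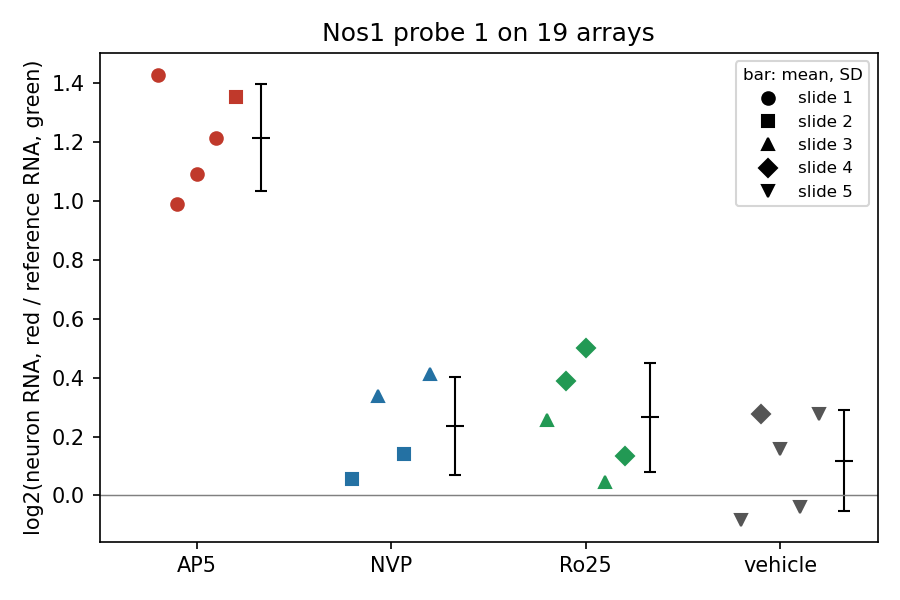
Log2 ratio of neuron RNA (red) over reference RNA (green) of Nos1 probe 1 on 19 arrays, with AP5, NVP, Ro25 and vehicle from left to right, one symbol per slide, and the mean with its SD beside each group. The 5 AP5 arrays, from slides 1 and 2, sit at 0.99 to 1.43, above all arrays of the other groups (-0.08 to 0.50).

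The means were 1.22 ± 0.18 in AP5 (SD, n = 5), 0.24 ± 0.17 in NVP (n = 4), 0.27 ± 0.18 in Ro25 (n = 5) and 0.12 ± 0.17 in vehicle (n = 5). The AP5 mean exceeded the vehicle mean by 1.10 (SE 0.10), a 2.14-fold difference with a 95% interval of 1.84 to 2.49. It exceeded the NVP mean by 0.98 (SE 0.11) and the Ro25 mean by 0.95 (SE 0.10), and these comparisons share the AP5 arrays that chose the gene. Only 12 of the 28638 kept probes had a larger positive difference between AP5 and vehicle.

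The neighbours in this order, Ro25, NVP and vehicle, did not differ beyond their spread. NVP exceeded vehicle by 0.12 (SE 0.11, 95% interval -0.11 to 0.35, adjusted p = 0.882 by limma over all probes). Ro25 exceeded vehicle by 0.15 (SE 0.10, 95% interval -0.07 to 0.37, adjusted p = 1.00 by limma). Both comparisons use the same vehicle arrays. NVP and Ro25 differed by -0.03 (95% interval -0.26 to 0.20, adjusted p = 1.00 by limma).

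The difference was in the neuron channel. Before normalization the red signal of Nos1 probe 1 over its local background was 4312 to 5247 in AP5, 1929 to 2325 in NVP, 1429 to 2257 in Ro25 and 1350 to 1953 in vehicle. After normalization the red level (log2 intensity) was higher by 1.21 (SE 0.13) in AP5 than in vehicle, and the green level of the reference by 0.11 (SE 0.03). On slide 2, the only slide that held AP5 beside another group, AP5 5 gave a log2 ratio of 1.35, against 0.06 and 0.14 on NVP 1 and NVP 3. These arrays also differed in their astrocyte marker mean, with 2.92 on AP5 5, 3.92 on NVP 1 and 4.12 on NVP 3. The part of that in the slide 2 difference was not tested. On slide 4 the Ro25 arrays gave 0.13 to 0.50, against 0.28 on vehicle 2. With slide as a fixed block the AP5 difference from vehicle was 1.55. That fit reaches vehicle only through the other groups and called 11 probes in all, without Nos1, where the fit without slide called 4868.

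A second Nos1 probe (Nos1 probe 2, chr5:118213855-118213914, at -5919 bases from probe 1, with 10 spots per array) lay near background in these neurons. Its red signal was well above background on 1 of 19 arrays, an AP5 array, and its green signal on 18. Its red signal over local background had a median of 24.8 in AP5, 18.4 in NVP, 15.4 in Ro25 and 14.6 in vehicle. The AP5 range of 13.4 to 26.3 lay within the vehicle range of 10.8 to 33.1, and no fold is given. The AP5 difference therefore rests on 1 probe with 1 spot per array, which the files list under an Ensembl transcript, while probe 2 is listed under a RefSeq transcript. Which exon or untranslated region either probe lies in was not determined here.

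**Figure D2:**
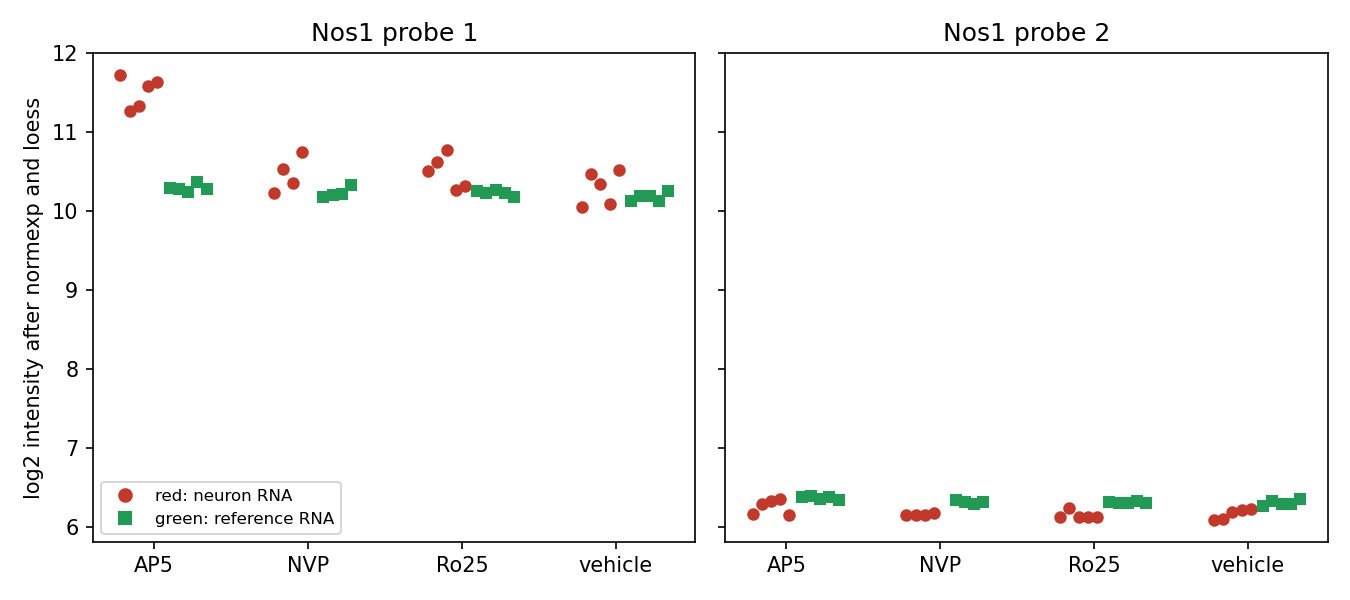
Log2 intensity of the red channel (neuron RNA, circles) and the green channel (reference RNA, squares) after normexp and loess for Nos1 probe 1 (left) and Nos1 probe 2 (right), with AP5, NVP, Ro25 and vehicle from left to right. For probe 1 the red values of AP5 lie at a mean of 11.5 against 10.3 in vehicle while green stays near 10.2, and for probe 2 both channels lie near 6.2 to 6.4 in all groups.

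Several neuron markers were also higher in AP5 than in vehicle, but the other antagonist groups lay above vehicle too. The mean log2 ratio over the neuron markers was 4.84 in AP5, 4.83 in NVP, 4.80 in Ro25 and 4.68 in vehicle. Of 16 kept GABAergic interneuron markers 6 were higher in AP5 than in vehicle (among them Gad2, Slc32a1, Sst, Cck and Calb2, by 0.34 to 0.53), and 0 were lower. Of all genes 10.6% were called higher and 7.04% lower. The mean log2 ratio of the GABAergic markers per array was 3.06 to 3.23 in AP5, 2.98 to 3.13 in NVP, 2.93 to 3.11 in Ro25 and 2.71 to 3.00 in vehicle. After the group means were removed, Nos1 probe 1 correlated at 0.52 with this mean and at -0.68 with the astrocyte mean over the 19 arrays. Of 12 neuron markers 4 were higher in AP5, of 17 astrocyte markers 3 and of 13 oligodendrocyte lineage markers 2, where 10.6% of all genes were called higher. Of 11 microglia markers 3 were lower, where 7.04% of all genes were called lower. The mean over the microglia markers was -2.27 in AP5, -2.24 in NVP, -2.23 in Ro25 and -2.11 in vehicle. Set against NVP and against Ro25, AP5 gave 0 calls among neuron and GABAergic markers, where 4.06% and 5.90% of all genes were called. The mean over the astrocyte markers was 2.92 to 4.25 in AP5 and 2.86 to 3.89 in vehicle. In such mixed RNA, more cells of a type and more RNA per cell cannot be told apart, and the part of these markers in the Nos1 difference was not tested. With the astrocyte mean as a covariate the Nos1 difference between AP5 and vehicle was 1.14, and with those 4 arrays of low astrocyte signal left out it was 1.07.

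Across all 6 members, 3 of the 12 kept probes (2 higher, 1 lower) were among the calls at an adjusted p of 0.05 in AP5 against vehicle, where 17.0% of all probes passed, 10.2% higher and 6.76% lower. This comparison chose the members, so the count is no test of them and nothing is read from it. The groups did not overlap for 2 of the 12 probes, against 11.4% of all probes. In NVP against vehicle 0 of 12 passed by limma (0% of all probes), with 1 of 12 at an unadjusted p under 0.05, against 8.14% of all probes. In Ro25 against vehicle 0 of 12 passed by limma (0% of all probes), with 1 of 12 at an unadjusted p under 0.05, against 5.69% of all probes. Among the 11 member probes other than Nos1 probe 1, the differences ran from -0.30 to 0.41 in AP5, from -0.15 to 0.31 in NVP and from -0.22 to 0.24 in Ro25, each against vehicle. Set directly against NVP and Ro25, AP5 gave 0 calls among these 11 probes by limma, with smallest adjusted p-values of 0.433 and 0.262, where 3.73% and 5.66% of all probes were called. NVP against Ro25 gave 0 calls by limma, for members and for all probes.

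**Figure D3:**
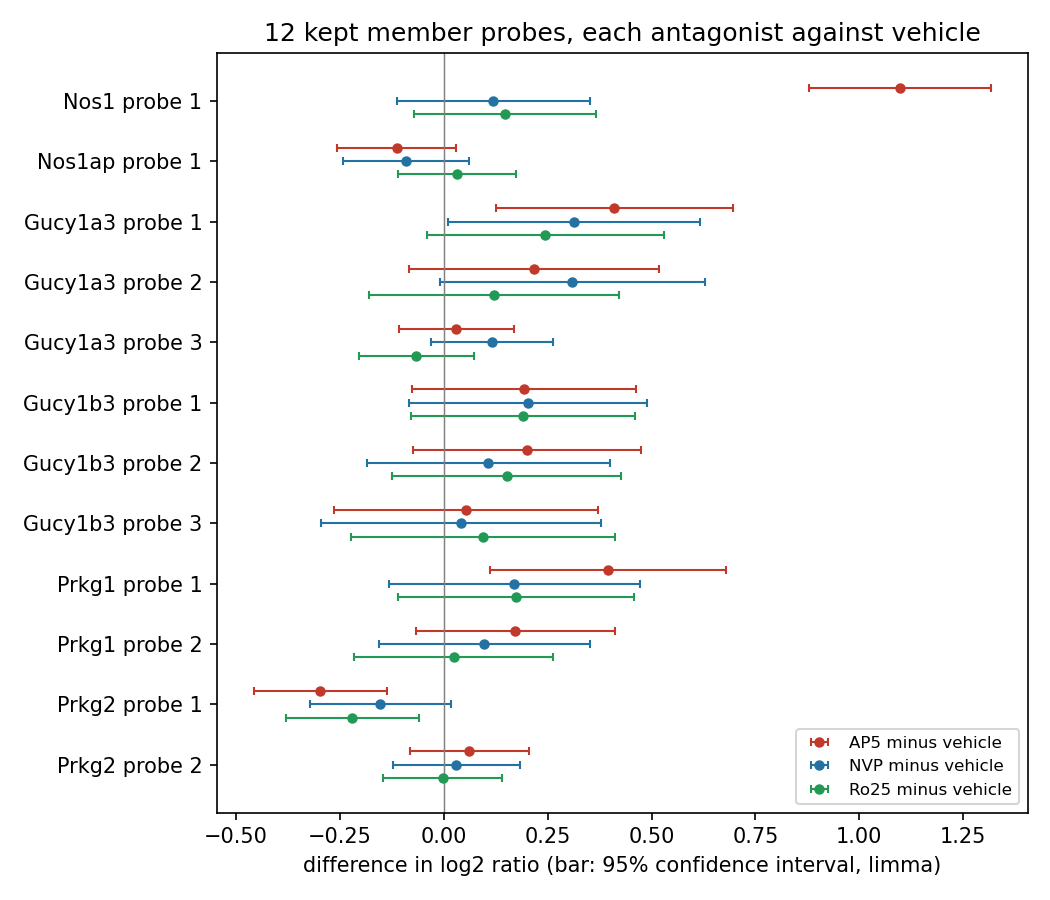
Difference in log2 ratio from vehicle for the 12 kept member probes in AP5, NVP and Ro25 (top to bottom within each probe), with 95% confidence intervals from limma. Nos1 probe 1 in AP5 stands at 1.10, and all other points lie between -0.30 and 0.41.

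Nos1ap, which encodes the adaptor that competes with PSD-95 for Nos1, had a single dim probe (chr1:172210170-172210229, minus strand). Its log2 ratios were 0.07, 0.01, 0.12, 0.10 and 0.18 in AP5. They were 0.22, 0.10, 0.21 and -0.05 in NVP, and 0.18, 0.26, 0.36, 0.18 and 0.23 in Ro25. In vehicle they were 0.09, 0.33, 0.11, 0.40 and 0.12. AP5 1 and 2 lay below every vehicle array and the other AP5 arrays inside the vehicle range, with a difference of -0.11 (SE 0.07) from vehicle. NVP differed from vehicle by -0.09 (95% interval -0.24 to 0.06) and Ro25 by 0.03 (-0.11 to 0.17), with adjusted p-values of 0.850 and 1.00 by limma. The red signal was well above background on 3 of 5 AP5 arrays, 4 of 4 NVP arrays, 5 of 5 Ro25 arrays and 4 of 5 vehicle arrays, so this probe lay near its lower limit.

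The alpha subunit gene Gucy1a3 (current symbol Gucy1a1) was measured by 3 kept probes on chromosome 3 that did not give the same difference. The brightest (Gucy1a3 probe 1, chr3:82180557-82180616) gave log2 ratios of 4.47, 4.47, 3.98, 4.11 and 4.16 in AP5. It gave 4.22, 4.30, 3.90 and 4.15 in NVP, 4.16, 3.90, 4.34, 3.90 and 4.05 in Ro25, and 3.79, 3.62, 4.15, 4.15 and 3.44 in vehicle. The lowest values were vehicle arrays, yet vehicle 3 and 4 lay among the antagonist arrays. The difference from vehicle was 0.41 (SE 0.14) in AP5. It was 0.31 in NVP (95% interval 0.01 to 0.62, adjusted p = 0.595 by limma) and 0.24 in Ro25 (95% interval -0.04 to 0.53, adjusted p = 0.957 by limma). For AP5, the red level was higher by 0.18 (SE 0.10) and the green level, the reference, lower with a difference of -0.23 (SE 0.09). The ratio's difference was thus shared by both channels, in parts whose sizes did not differ beyond their SE. The AP5 difference was 0.04 with the red channel alone, 0.05 with normexp fitted to all spots and 1.55 with the deposited log ratio. The reference was well above background on 6 of 19 arrays for this probe and on 0 for probes 2 and 3, whose ratios to it are lower bounds. Gucy1a3 probe 2, 67 bases away, differed from vehicle by 0.22 in AP5 and probe 3 by 0.03. For probe 3 every NVP array lay above every Ro25 array, with a difference of 0.18 (adjusted p = 1.00 by limma), where 0.740% of all probes did not overlap and 1.69% had an unadjusted p under 0.05. Gucy1a3 probe 4, at chr3:82193066-82193125, was not well above background on any array.

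The beta subunit gene Gucy1b3, without which the cyclase has no haem to bind nitric oxide, varied between arrays and little between groups. Its brightest probe (Gucy1b3 probe 1, chr3:82118147-82118206) gave 5.29, 5.15, 5.05, 5.00 and 5.51 in AP5. It gave 5.21, 5.28, 4.97 and 5.37 in NVP, 5.39, 4.84, 5.48, 5.06 and 5.23 in Ro25, and 4.73, 5.33, 5.11, 4.99 and 4.88 in vehicle. All 4 groups overlapped. The ratio differed from vehicle by 0.19 (SE 0.13) in AP5, 0.20 (95% interval -0.08 to 0.49) in NVP and 0.19 (-0.08 to 0.46) in Ro25, with adjusted p-values of 0.791 and 1.00 by limma for NVP and Ro25. In AP5 the red level differed by -0.20 (SE 0.13) and the green level by -0.39 (SE 0.08), so the sign turned when the red channel was read alone, and also with normexp fitted to all spots (-0.11). The other probes differed from vehicle by 0.20 and 0.05 in AP5, by 0.11 and 0.04 in NVP and by 0.15 and 0.09 in Ro25.

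The 3 Gucy1b3 probes rose and sank together over the 19 arrays, with Pearson correlations of 0.66 to 0.81 after the group means were removed. They ran against the astrocyte markers, with correlations of -0.64 to -0.78 on the same scale. The reference signal of Gucy1b3 probe 3 was well above background on 1 of 19 arrays, so its ratios are lower bounds. For probe 3 the array lowest in astrocyte markers was the highest of its group in each group, with 3.52 on AP5 5, 3.48 on NVP 4, 3.60 on Ro25 3 and 3.53 on vehicle 3. The other arrays of those groups reached 3.45, 3.32, 3.42 and 3.25. The brighter probes did not show this in every group. At probe 1 vehicle 2 (5.33) exceeded vehicle 3 (5.11), and at probe 2 AP5 1 (4.90) exceeded AP5 5 (4.66). In the remaining groups of each of these probes the low-astrocyte array was again the highest. These correlations describe 19 arrays that share a reference RNA and slides, and ratios within a mixed culture.

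**Figure D4:**
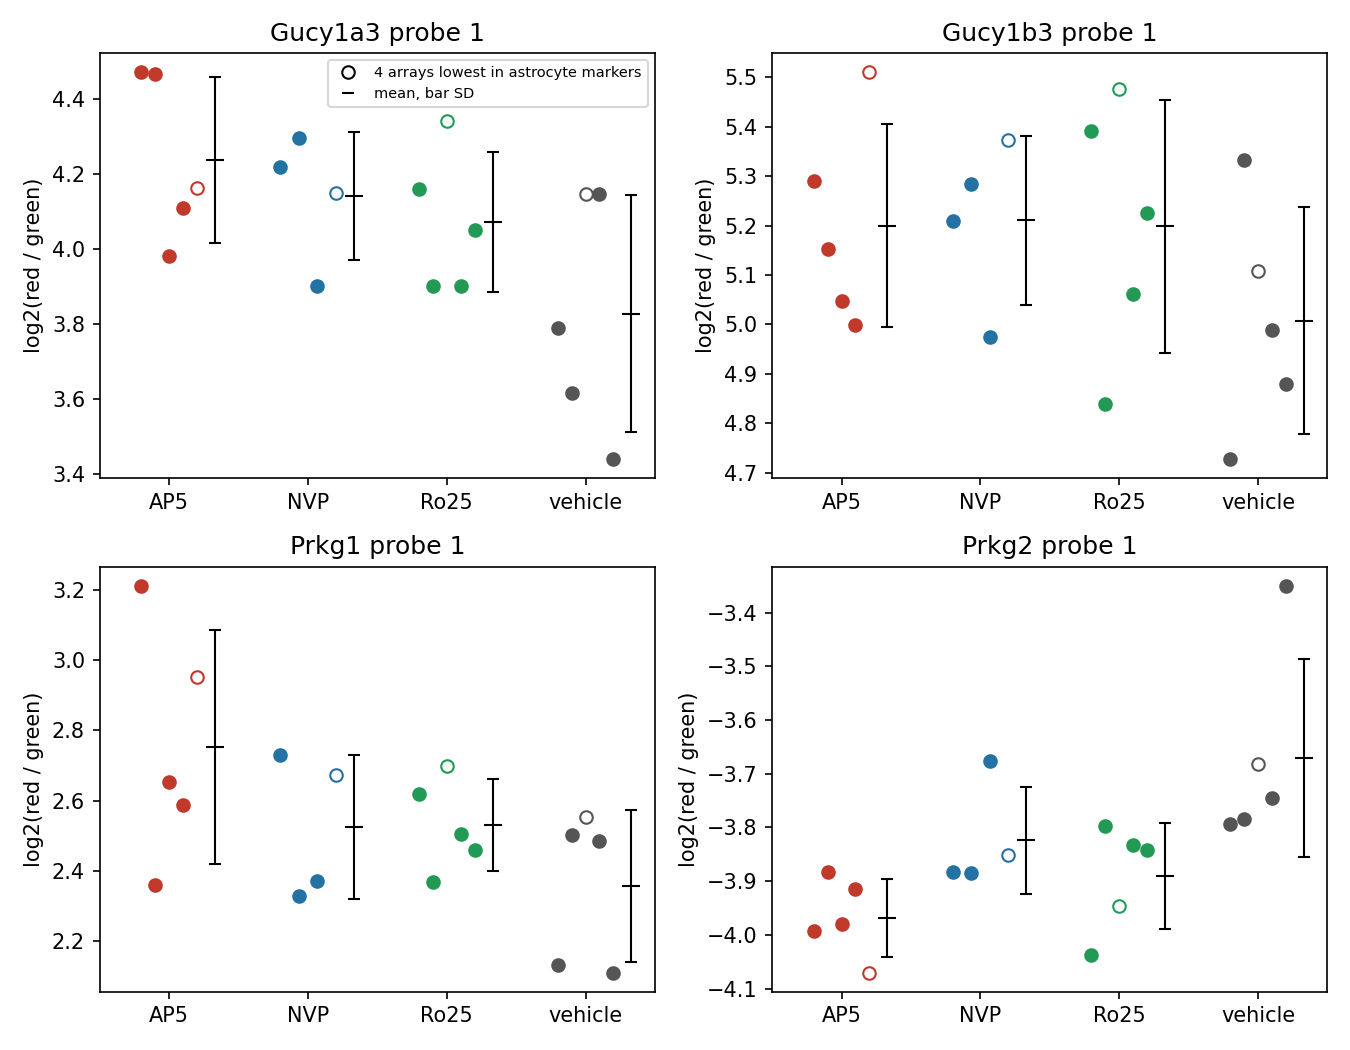
Log2 ratio (red over green) per array for the brightest probes of Gucy1a3, Gucy1b3, Prkg1 and Prkg2, with AP5, NVP, Ro25 and vehicle from left to right, the mean and SD beside each group, and open circles for the 4 arrays lowest in astrocyte markers. The groups overlap for Gucy1a3, Gucy1b3 and Prkg1, and for Prkg2 all AP5 arrays (-4.07 to -3.88) lie below all vehicle arrays (-3.79 to -3.35).

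Prkg1, the cytosolic cGMP-dependent kinase, had 2 kept probes near each other on chromosome 19. Prkg1 probe 1 (chr19:30631164-30631223) gave 3.21, 2.36, 2.65, 2.59 and 2.95 in AP5. It gave 2.73, 2.33, 2.37 and 2.67 in NVP, 2.62, 2.37, 2.70, 2.51 and 2.46 in Ro25, and 2.13, 2.50, 2.55, 2.48 and 2.11 in vehicle. Of the AP5 arrays 4 lay above every vehicle array, and AP5 2 lay inside the vehicle range. The difference from vehicle was 0.40 (SE 0.14) in AP5, 0.17 in NVP (95% interval -0.13 to 0.47) and 0.17 in Ro25 (-0.11 to 0.46), with adjusted p-values of 0.862 and 1.00 by limma for NVP and Ro25. Here the red level in AP5 was higher by 0.40 (SE 0.11) and the green level differed by 0.00. The reference was well above background on 9 of 19 arrays for this probe, 1 of them an AP5 array, so that green level lay near its lower limit. With normexp fitted to all spots the AP5 difference in ratio was 0.10. AP5 exceeded NVP by 0.23 and Ro25 by 0.22, with adjusted p-values of 0.505 and 0.431 by limma. Prkg1 probe 2, 3906 bases away, differed from vehicle by 0.17 (SE 0.11) in AP5, 0.10 in NVP and 0.02 in Ro25. The other probes, at chr19:31808176-31808235 and chr19:30775045-30775104, were well above background in red on 1 and 0 of 19 arrays.

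Prkg2, the membrane-anchored cGMP-dependent kinase, was dim in neurons and bright in the reference. Prkg2 probe 1 (mm8 coordinates chr5:99182466-99183722, a span of 1257 bases, where the probes of the other members span 60) gave -3.99, -3.88, -3.98, -3.91 and -4.07 in AP5. It gave -3.88, -3.89, -3.68 and -3.85 in NVP, -4.04, -3.80, -3.95, -3.83 and -3.84 in Ro25, and -3.79, -3.78, -3.68, -3.75 and -3.35 in vehicle. All AP5 arrays and, by a narrow margin, all Ro25 arrays lay below every vehicle array, while NVP 3 lay inside the vehicle range. The difference from vehicle was -0.30 (SE 0.08) in AP5 and -0.15 in NVP (95% interval -0.32 to 0.02, adjusted p = 0.671 by limma). In Ro25 it was -0.22 (95% interval -0.38 to -0.06, unadjusted p = 0.00969, adjusted p = 0.714 by limma), and the groups did not overlap for 0.782% of all probes in this comparison. Without vehicle 5 the differences were -0.22 in AP5, -0.07 in NVP and -0.14 in Ro25. After normalization the red level in AP5 differed from vehicle by -0.25 (SE 0.07) and the green level by 0.05 (SE 0.04). With the red channel read alone, where the arrays were scaled to each other without loess, the AP5 difference in Prkg2 probe 1 was -0.06. Its raw red signal over background had a median of 148 in AP5 and 134 in vehicle. Prkg2 probe 2, with a span of 3289 bases, was well above background in red on 9 of 19 arrays and in green on 0. It differed by 0.06 in AP5, 0.03 in NVP and 0.00 in Ro25.

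The other genes of the pathway were read from 5 lists of 88 genes, of which 73 were kept, each by its brightest probe. In AP5 against vehicle 11 were higher and 2 lower, which is 17.8% of the 73, where 17.7% of all genes were called. The median difference was 0.06, against 0.01 over all genes. In NVP and in Ro25 against vehicle 0 of 73 passed by limma (0% of all genes). AP5 against NVP gave 2 calls (4.06% of all genes) and AP5 against Ro25 gave 4 (5.90% of all genes). With slide as a fixed block 0 of the 9 genes picked by the naming rule passed in AP5 against vehicle (adjusted p = 0.327 to 0.895 by limma), and 7 of the 9 kept their direction. Nos3 and Rgs2 passed in each of the other alternatives that measured them, and the other 7 lost their call in at least 1 of these.

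Of the genes that bind, regulate or resemble Nos1, 6 of 16 were higher in AP5 and 0 lower, against 10.6% of all genes called higher. Rasd1, a small G protein that Nos1ap links to Nos1, averaged 1.92 ± 0.31 in AP5 and 1.17 ± 0.27 in vehicle (SD, n = 5 each), a difference of 0.75 (SE 0.16, adjusted p = 0.00341 by limma), and exceeded Ro25 by 0.70 (adjusted p = 0.0115 by limma). Rasd1 was not called in AP5 against NVP. The Rasd1 difference from vehicle was 0.51 with normexp fitted to all spots and 1.67 with slide blocked, and passed under neither. Nos3, the endothelial nitric oxide synthase, averaged 0.60 ± 0.12 in AP5 and 0.16 ± 0.06 in vehicle (SD, n = 5 each), a difference of 0.44 (SE 0.06, adjusted p = 2.97e-05 by limma). AP5 also exceeded NVP by 0.40 (adjusted p = 0.000334) and Ro25 by 0.39 (adjusted p = 0.00023) for Nos3 in limma's fit, with the same AP5 arrays. Of the 9 kept endothelial and mural markers, which lack Pecam1 and Cdh5, 0 were called in AP5 against vehicle, against 17.7% of all genes. Which cells gave the Nos3 difference was not tested. Dlg2, which encodes the scaffold PSD-93, was higher by 0.30 (adjusted p = 0.0401 by limma) and turned to -0.13 in the red channel alone. Also called higher, and named after their values were seen, were Hsp90aa1 (a chaperone of nitric oxide synthases, 0.23) and Nosip (a Nos3-interacting protein, 0.16). Dlg4, which encodes PSD-95, differed by -0.05 and Dynll1, the dynein light chain that binds Nos1, by -0.28, and neither passed. Nos2, the inducible synthase, was not kept.

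Genes that supply arginine and tetrahydrobiopterin, the substrate and a cofactor of the synthases, gave 1 call of 17. Gch1, the rate-limiting enzyme of tetrahydrobiopterin synthesis, differed by -0.31 and did not pass.

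Of the other guanylyl cyclases and natriuretic peptides 1 of 10 passed in AP5. Nppc, the C-type natriuretic peptide that acts on a membrane guanylyl cyclase, averaged 2.99 ± 0.61 in AP5 and 2.22 ± 0.30 in vehicle (SD, n = 5 each), a difference of 0.78 (SE 0.23, adjusted p = 0.023 by limma). Without AP5 1, AP5 5, vehicle 1 or vehicle 5 the Nppc difference was 0.65, 0.57, 0.69 and 0.71, and no longer passed. It was 0.46 with normexp fitted to all spots and 1.55 with slide blocked, and passed under neither.

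Of 13 kept phosphodiesterases that hydrolyse or bind cGMP 1 passed in AP5. Pde1b, which is activated by calcium, averaged 2.78 ± 0.03 in AP5 and 2.53 ± 0.10 in vehicle (SD, n = 5 each), a difference of 0.24 (adjusted p = 0.0114 by limma). Pde9a, a cGMP-specific enzyme, differed by 0.41 (SE 0.16) and did not pass.

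Among kinase substrates and cGMP-gated channels 2 of 17 were higher and 2 lower in AP5. Rgs2, a brake on G protein signalling and a substrate of Prkg1, averaged 0.38 ± 0.20 in AP5 and 1.25 ± 0.24 in vehicle (SD, n = 5 each), a difference of -0.87 (SE 0.12, adjusted p = 7.02e-05 by limma). AP5 was also below NVP for Rgs2, by -0.71 (adjusted p = 0.00208 by limma), and below Ro25, by -0.67 (adjusted p = 0.00173 by limma). Creb1, a transcription factor, was higher by 0.32 (adjusted p = 0.00442 by limma), with 0.03 and 0.05 at its other probes. Ppp1r1b, a phosphatase inhibitor known as DARPP-32, was higher by 0.24 (adjusted p = 0.047 by limma) and turned to -0.13 in the red channel alone. Mrvi1, a partner of Prkg1 and named after its value was seen, was lower, with a difference of -0.23 (adjusted p = 0.0351 by limma).

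**Figure D5:**
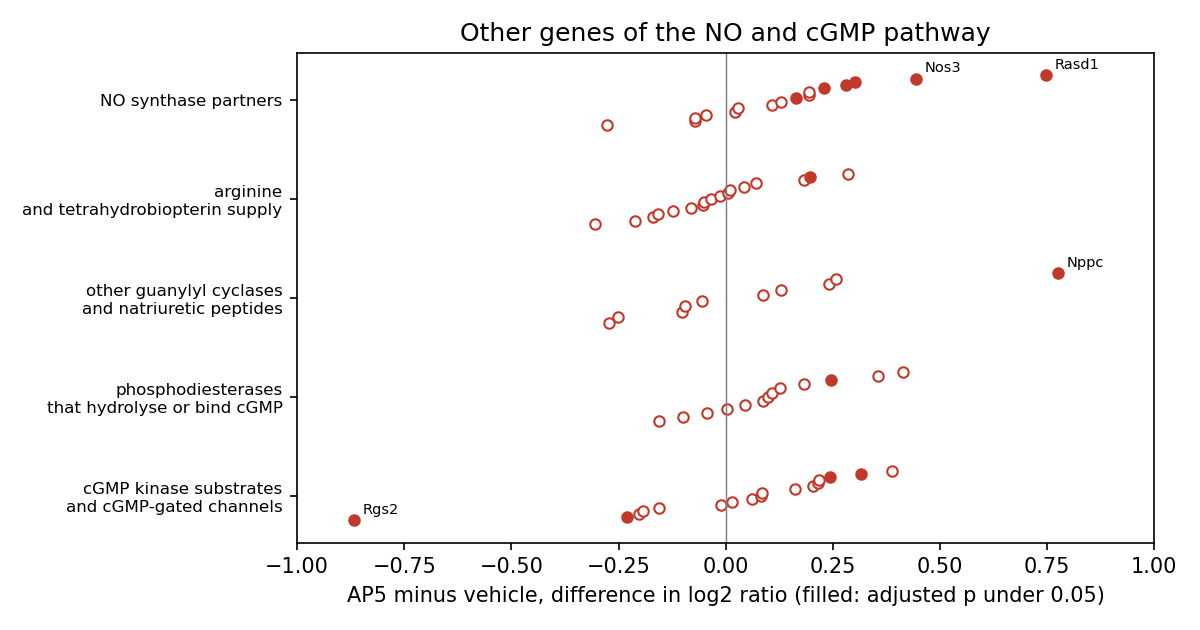
Difference in log2 ratio between AP5 and vehicle for the kept genes of the 5 pathway lists, 1 point per gene, filled where the adjusted p was under 0.05. Rgs2 lies at -0.87 on the left and Nos3 (0.44), Rasd1 (0.75) and Nppc (0.78) on the right, and most genes lie within 0.3 of 0.

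The genes whose profile over the 19 arrays was most like that of Nos1 probe 1, among 16005 genes, were Dhx33, an RNA helicase (Pearson r = 0.99), Cavin2, a caveolar coat protein (0.97), and Gpc1, a heparan sulfate proteoglycan of the cell surface (0.97). They were followed by Dedd2 (0.97), Rps6ka5, the kinase MSK1 (0.97), Ppil4 (0.96), Sntb2, a syntrophin adaptor (0.96), and Slx4ip (0.96). After the group means were removed these correlations were 0.66 to 0.89. Because the 8 genes were picked for likeness to Nos1, a pattern over the groups like that of Nos1 follows from the choice. At their brightest probes the 8 genes differed between AP5 and vehicle by 0.42 to 1.08, between NVP and vehicle by -0.03 to 0.20 and between Ro25 and vehicle by 0.02 to 0.16. With all kept probes of a gene averaged, the AP5 difference from vehicle fell to 0.29 for Dhx33, 0.44 for Dedd2, 0.18 for Ppil4, 0.49 for Sntb2 and 0.27 for Slx4ip. For Cavin2, Gpc1 and Rps6ka5 it moved by less than 1 SD. The points share the reference RNA, the slides and the groups, and the likeness is given as a description.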

How the data were processed

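Dual-channel Agilent mouse arrays were deposited as scanner output for each sample, and 43379 of the 45018 spots carried 41174 gene probes. Per the file headers, the deposited spot intensities were extracted with Feature Extraction 9.5.3.1 (the submitters' processing notes give version 11.0), and probe positions are mm8. The log10 ratio in the deposited files, red over green, is per the file headers background-subtracted and dye-normalized. The authors' processed table holds log2 values for 20674 probes, with the centring not given in the sources used here. Its columns followed the ratios computed here with slopes of 0.99 to 1.01 and medians of 0.03 to 0.05.

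From the intensities, spots marked as not uniform or outliers were left out (117 to 266 per array, 1642 on vehicle 5), background was corrected with normexp (offset 50, which compresses dim ratios), and ratios were normalized by loess within arrays. Spots of a probe were averaged. All groups entered 1 fit with limma 3.58.1 (R 4.3.3, data.table version 1.17.8, statmod 1.5.0) over all 19 arrays, two-sided, with Benjamini-Hochberg adjustment over all kept probes per comparison and a threshold of 0.05. The fit was tested on simulated data. Probes were named through accession or symbol in a RefSeq list, and 8148 kept the file's name. Members and lists were chosen with earlier results of these data known. Named were all member probes, up to 3 called genes per list with the largest difference from vehicle, and the 8 genes most correlated with Nos1. Alternatives changed the background correction, ratio, channel, filter, slide, replicate block, probe choice, astrocyte content and the arrays used. No pair of arrays shared more than 0.0161% identical red values. Some genes of the lists are counted but not reported by name here.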

Additional observations from a re-analysis of the deposited data

Results flagged for a closer look

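Prkg2 probe 1 gave the only member values that stood apart within a group, in 2 of 48 probe and group combinations, where chance gives about 1 in 20. On NVP 3 its log2 ratio was -3.68, against -3.89 to -3.85 on the other NVP arrays. On vehicle 5 it was -3.35, against -3.79 to -3.68 on the other vehicle arrays, and vehicle 5 was the array with 1642 marked spots.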

How the results depend on the processing

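The Nos1 difference between AP5 and vehicle was 1.04 to 1.15 when each array was left out and 1.55 with slide as a fixed block. In the other settings it kept its direction and moved by less than 1 SD. Leave-one-out gave 0.06 to 0.18 for NVP and 0.09 to 0.20 for Ro25 against vehicle, and no setting carried these past the threshold. Probes called in AP5 against vehicle (4868) numbered 959 with normexp fitted to all spots, 3055 in the red channel alone, 11 with slide fixed, 2818 in the authors' table and 7915 with the astrocyte covariate, and 3570 to 4910 with an array left out. For AP5 against NVP (1068) they numbered 309 (normexp), 186 (slide), 646 (authors' table), 2208 (covariate) and 700 to 1076 (leave-one-out), and for AP5 against Ro25 (1621) 520, 25, 972, 2978 and 1206 to 1615. Ro25 against vehicle gave 1 with slide, 4 with the covariate, 2 with the 4 low-astrocyte arrays left out and 0 to 2 with an array left out. NVP against vehicle gave 0 to 2 with an array left out, and NVP against Ro25 0. The higher calls were 2931 of 4868 in AP5 against vehicle and 2315 of 3369 with the deposited log ratio. The cause of these shifts was not tested. Direction turned, in Ro25 against vehicle, with normexp on all spots for Nos1ap (-0.0331), Gucy1a3 (-0.52), Gucy1b3 (-0.48), Prkg1 (-0.39) and Prkg2 (0.26), with slide for Nos1ap (-0.0455) and Gucy1b3 (-0.15), in the red channel for Gucy1b3 (-0.0247), and with the 4 low-astrocyte arrays left out for Nos1ap (-0.0225). In NVP against vehicle it turned in the red channel for Gucy1b3 (-0.0406) and with slide for Gucy1b3 (-0.0494) and Prkg1 (-0.0546). In AP5 against vehicle it turned with normexp on all spots for Gucy1b3 (-0.11), in the red channel for Gucy1b3 (-0.32), Dlg2 (-0.13) and Ppp1r1b (-0.13), and with slide for Pde1b (-0.0853) and Ppp1r1b (-0.18). Arrays of different groups with the same replicate number were no more alike than those with different numbers, after the group means were removed. Of 27 pairs with the same number 8 correlated above 0.1 (mean r -0.09), and of 108 pairs with different numbers 49 did (mean r 0.03). Whether samples were paired in another order was not tested. With the replicate block Nos1 differed by 1.10 in AP5, 0.13 in NVP and 0.15 in Ro25, 4255 probes were called in AP5 against vehicle, and Dlg2 and Ppp1r1b no longer passed. With Aquantile the ratios are the same by construction. The authors' table lacks Nos1 probe 1 and 10 of the 16 member probes in all, so it gave no value of Nos1 probe 1. The Nos1 probe that it holds is probe 2, which lay near background. Dim probes limit what can be said of Nos1ap, Prkg2 and the second Nos1 probe, and slide and AP5 cannot be told apart within any slide that holds vehicle.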
